A study of Homo sapiens with 4 samples.

Results

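The 10 genes described here encode the enzymes that make, lengthen and desaturate fatty acids: ACLY, ACSS2, ACACA, FASN, ELOVL1, ELOVL5, ELOVL6, SCD, FADS1 and FADS2. They were chosen by gene symbol, with earlier results of these data known. Each matched 1 row of the 64252 gene IDs in the count table, and all 10 passed the filter on low counts. They were compared in Jurkat, an established human line of acute lymphoblastic leukemia of T cells (T-ALL). One group of 2 libraries carried a scrambled short hairpin RNA (sh-Scb), the other group of 2 a hairpin against SOX4 (sh-SOX4), a transcription factor of the SOXC family. Both groups come from this line. The time after hairpin delivery, the hairpin sequences and whether cells were cloned were not stated by the submitters.

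Fatty acid synthesis starts in the cytosol from acetyl-CoA, which ATP citrate lyase (ACLY) cuts from citrate and ACSS2 makes from acetate. Acetyl-CoA carboxylase (ACACA) turns it into malonyl-CoA and fatty acid synthase (FASN) joins these units into palmitate. At the endoplasmic reticulum, elongases (ELOVL) lengthen acyl chains and desaturases (SCD, FADS1, FADS2) put in double bonds. Many of these genes are known targets of SREBP transcription factors, which are released from the membrane when sterols are low, and proliferating lymphoid cells are known to use the pathway to build membranes.

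SOX4 itself was lower in both sh-SOX4 libraries, at 191 and 199 CPM (depth-scaled counts, here with the trimmed mean of M-values, TMM), below both sh-Scb libraries at 271 and 277 CPM. Its fitted level was 71.1% of the control level (95% interval 66.4% to 76.1%). The libraries summed to between 29093287 and 36636219 counts. T lineage markers such as CD3E and LCK were expressed in all 4 libraries. Their list of 11 genes summed to 2255 to 2287 CPM in sh-Scb, and to 3038 to 3052 CPM with sh-SOX4. It includes TAL1 (mean 225 CPM in sh-Scb and 363 CPM in sh-SOX4), which is not a T lineage marker. Of the 11 listed genes 9, TAL1 among them, were higher in sh-SOX4 and 2 were not called. Among all tested gene IDs 23.2% were called higher and 20.9% lower. Markers of other cell types moved too. The 6 B cell markers summed to 67.4 to 69.3 CPM in sh-Scb and 15.1 to 16.7 in sh-SOX4, mostly CD79A. The 9 myeloid markers summed to 13.1 to 15.3 and 31.4 to 32.6 CPM, with LYZ at 0 throughout. Most of that sum in sh-SOX4 was S100A9 (mean 4.22 and 23.2 CPM), while CD68 fell from 6.70 to 3.96 CPM and CD33, not called, had means of 1.13 and 0.497 CPM. The 6 fibroblast or epithelial markers summed to 25.1 to 26.9 and 18.1 to 18.3 CPM, with COL1A2 at 0. Nearly all of that sum was COL1A1 (mean 25.1 and 17.3 CPM). The 5 NK markers reached at most 32.3 CPM and the 6 adipocyte or hepatocyte markers at most 6.31 CPM, with ADIPOQ, FABP4 and ALB at 0. The part of these shifts in the results below was not tested. In bulk libraries, fewer cells of a type and less RNA per cell cannot be told apart.

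Transcripts of 9 of the 10 enzymes fell in sh-SOX4 and 0 rose, by edgeR as by DESeq2 and limma-voom; at an unadjusted p under 0.05 edgeR also had 0 higher. The largest falls were those of ACSS2, to 22.9% of control, SCD, to 30.3%, and ELOVL6, to 33.7%. ACLY, FADS1 and FADS2 fell to about the same degree, to 45.9%, 49.1% and 50.9%. The enzymes of chain building changed less, with FASN at 72.8% and ACACA at 81.8% of control, and so did ELOVL5, at 88.7%. ELOVL1, an elongase of saturated and monounsaturated very long chains, was the 1 gene not called, at 106% of control. Beside these 9 lower calls stand the 44.1% of all 19897 tested gene IDs that were called in either direction, 20.9% lower and 23.2% higher. The test was edgeR's quasi-likelihood test, with p-values adjusted by Benjamini-Hochberg and a threshold of 0.05. In 5 of the 10 the fall was also at least 2-fold, against 6.07% of all tested IDs. The median log2 fold change of the 10 was -1.001, against -0.01 for all tested IDs. In 9 of the 10 the sh-SOX4 libraries lay below both sh-Scb libraries, as in 36.6% of all tested IDs. SOX4 itself fell by 0.49 on the log2 scale, and 6 of the 10 fell by more.

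**Figure D1:**
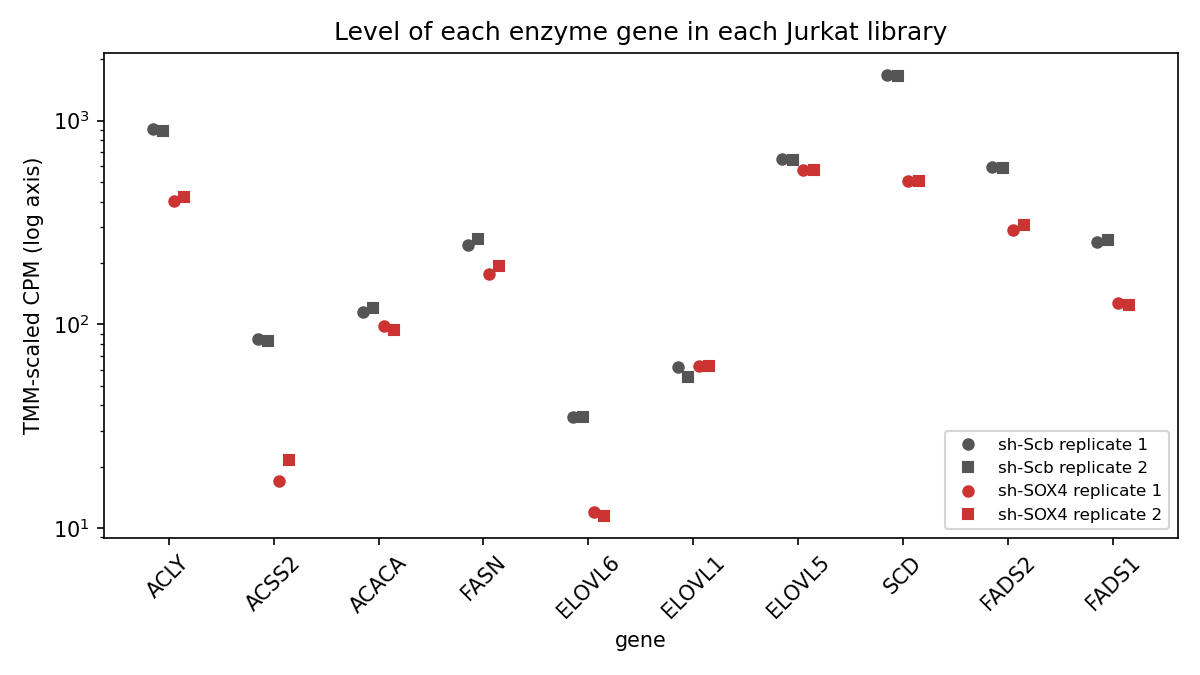
TMM-scaled CPM (log axis) of each enzyme gene in each of the 4 libraries, ordered along the pathway. Grey points are the sh-Scb libraries and red points the sh-SOX4 libraries; both sh-SOX4 points lie below both sh-Scb points for every gene except ELOVL1, from ACSS2 with the widest gap to ELOVL5 with the narrowest.

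As counts, the 10 genes together took 0.476% and 0.475% of each sh-Scb library, against 0.218% and 0.223% of each sh-SOX4 library. SCD alone made up 36.3% and 36.1% of that sum with sh-Scb, against 22.3% and 21.9% with sh-SOX4. Without SCD, the other 9 summed to 2939 and 2932 CPM in sh-Scb, against 1758 and 1805 CPM with sh-SOX4. The lower sum was therefore present with and without its most abundant member. Single counts ran from 342, for ELOVL6 in an sh-SOX4 library, to 63343, for SCD in an sh-Scb library.

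Sequences before the transcription starts are shown for SCD, ACLY, ELOVL6 and ACSS2, each at least 2-fold lower, and for ELOVL1, which was not called. Each is the stretch of the RefSeq promoter window (GRCh38.p14, 250 bases before the start) that lies outside annotated exons, 5′ to 3′ on the gene's strand. ACSS2 has a second window, without a CCAAT box, which is not printed, and neither is that of FADS1, also at least 2-fold lower and without one. Capitals mark a CCAAT box, the site known to bind the NF-Y factor, on either strand.
SCD, chr10:100346983-100347123, plus strand: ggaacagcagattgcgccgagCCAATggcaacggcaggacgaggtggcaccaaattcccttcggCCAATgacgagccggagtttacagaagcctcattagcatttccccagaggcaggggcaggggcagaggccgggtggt
ACLY, chr17:41919023-41919272, minus strand: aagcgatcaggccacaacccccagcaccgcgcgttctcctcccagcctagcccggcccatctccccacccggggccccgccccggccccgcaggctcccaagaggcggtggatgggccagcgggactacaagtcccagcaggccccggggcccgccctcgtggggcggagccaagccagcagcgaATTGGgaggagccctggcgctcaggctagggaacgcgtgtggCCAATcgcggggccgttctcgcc
ELOVL6, chr4:110198677-110198841, minus strand: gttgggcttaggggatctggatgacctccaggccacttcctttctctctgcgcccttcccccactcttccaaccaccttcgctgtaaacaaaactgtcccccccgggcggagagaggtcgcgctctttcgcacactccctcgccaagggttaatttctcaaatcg
ACSS2, chr20:34874739-34874941, plus strand: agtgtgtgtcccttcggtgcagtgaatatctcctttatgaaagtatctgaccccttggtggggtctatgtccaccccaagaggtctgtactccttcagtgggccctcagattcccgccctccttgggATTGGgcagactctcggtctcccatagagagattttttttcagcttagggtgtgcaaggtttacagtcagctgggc
ELOVL1, chr1:43368075-43368261, minus strand: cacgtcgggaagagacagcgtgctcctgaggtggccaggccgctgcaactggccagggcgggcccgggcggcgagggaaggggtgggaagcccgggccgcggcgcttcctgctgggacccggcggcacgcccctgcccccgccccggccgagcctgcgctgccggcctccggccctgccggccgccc

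RefSeq windows of 300 bases (250 before and 50 after the start) were found for 9 of the 10 genes, 14 windows in all, with FASN not matched. Windows of 1 gene overlap for ACLY and FADS2. CCAAT was searched on both strands and was present in 9 of the 14 windows (64.3%), belonging to 7 genes, against 34.6% of all 35116 windows. SCD and ACLY each carry a pair of CCAAT boxes in the stretches printed. ELOVL6 and FADS1 hold none, and ELOVL1 holds 1 that crosses the end of its printed stretch. The sterol regulatory element letters TCACNCCAC, an SREBP site, were in none of the 14 windows and in 1.13% of all windows. The GC box GGGCGG, bound by SP1, was in 11 of 14 against 45% of all windows. The E-box CACGTG was found for ELOVL5 only, against 7.26% of all windows, and the SOX motif AACAAAG for FADS2 only, against 5.20%. Hits of different motifs were counted separately whether or not they overlapped. These are matches of letters and not sites, and a missing match says only that the letters are not in these windows. Any part of these motifs in the changes was not tested.

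The supply of acetyl-CoA was measured through ACLY and ACSS2. ACLY (ENSG00000131473, chromosome 17, 41866908 to 41930542 on GRCh38, minus strand) stood at 907 and 894 CPM with sh-Scb and at 406 and 420 CPM with sh-SOX4. The 2 libraries of each group were close to each other and the groups lay far apart. ACLY fell by 1.12 on the log2 scale (SE 0.039, edgeR adjusted p of 3.86e-08). ACSS2 (ENSG00000131069, chromosome 20, 34872146 to 34927962, plus strand), the acetate-activating enzyme of cytosol and nucleus, stood at 85.0 and 82.8 CPM in sh-Scb and at 16.9 and 21.5 CPM in sh-SOX4. Its sh-SOX4 libraries differed more from each other than those of ACLY, and both were far below the control libraries. Its log2 fold change of -2.13 (SE 0.10) was the largest fall among the 10 and lay at rank 218 from the lowest among all 19897 tested IDs, with an edgeR adjusted p of 9.19e-07. The ratio of ACSS2 to ACLY counts was 0.0938 and 0.0926 with sh-Scb, against 0.0417 and 0.0512 with sh-SOX4, so the groups did not overlap in this ratio either. A ratio within a library does not depend on how libraries are scaled, and it shows an unequal change of the genes. With 2 libraries against 2, an exact permutation test of a ratio cannot give a two-sided p under 0.333, so none is given.

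Chain building was measured through ACACA and FASN. ACACA (ENSG00000278540, chromosome 17, 37084988 to 37406818, minus strand), which makes malonyl-CoA, stood at 115 and 120 CPM in sh-Scb and at 97.7 and 94.2 CPM in sh-SOX4. FASN (ENSG00000169710, chromosome 17, 82078333 to 82098332, minus strand) stood at 245 and 262 CPM in sh-Scb and at 176 and 192 CPM in sh-SOX4. In both genes all sh-SOX4 values were under all sh-Scb values, with the narrower gap for ACACA. On the log2 scale ACACA fell by 0.29 (SE 0.051, edgeR adjusted p of 0.00106), and FASN fell by 0.46 (SE 0.056, edgeR adjusted p of 0.000104). Their 95% intervals, -0.40 to -0.18 for ACACA and -0.58 to -0.33 for FASN, overlap. The ratio of FASN to ACACA counts was 2.13 and 2.18 with sh-Scb, against 1.80 and 2.04 with sh-SOX4. The gap between groups in this ratio, 2.04 against 2.13, was smaller than the gap between the sh-SOX4 libraries, so the ratio does not stand clear of replicate spread.

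Among the elongases, ELOVL6, which extends palmitate to stearate, fell most. ELOVL6 (ENSG00000170522, chromosome 4, 110045846 to 110199199, minus strand) stood at 34.9 CPM in each sh-Scb library, against 12.0 and 11.5 CPM with sh-SOX4. Replicates were nearly equal and the groups lay far apart, with a log2 fold change of -1.57 (SE 0.096) and an edgeR adjusted p of 9.72e-07. ELOVL5 (ENSG00000012660, chromosome 6, 53267398 to 53349179, minus strand), which lengthens polyunsaturated chains, stood at 646 and 639 CPM in sh-Scb and at 569.8 and 570.0 CPM in sh-SOX4. The change was small but larger than the replicate spread, at -0.17 on the log2 scale (SE 0.037) with an edgeR adjusted p of 0.00372. With scaling to library totals alone its log2 fold change was -0.27. ELOVL1 (ENSG00000066322, chromosome 1, 43363397 to 43368074, minus strand) stood at 61.7 and 55.4 CPM in sh-Scb and at 62.1 and 62.5 CPM in sh-SOX4. The gap between its sh-Scb libraries was wider than the gap between the groups, and its log2 fold change was 0.09 (SE 0.068, 95% interval -0.06 to 0.24) with an edgeR adjusted p of 0.325. That interval leaves room for a rise but not for a fall of the size seen in ELOVL5 (-0.17), and the sign turned to -0.01 with scaling to library totals.

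The ratio of ELOVL6 to ELOVL5 counts was 0.0541 and 0.0546 with sh-Scb, against 0.0211 and 0.0202 with sh-SOX4, well apart. The ratio of ELOVL5 to ELOVL1 counts was 10.5 and 11.5 with sh-Scb, against 9.17 and 9.12 with sh-SOX4, and the sh-Scb libraries lay nearly as far from each other as the groups did. The plot of count ratios by group shows both.

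The desaturases all fell, SCD by more than the other two. SCD (ENSG00000099194, chromosome 10, 100347124 to 100364834, plus strand), which makes oleate and palmitoleate from saturated chains, stood at 1675 and 1660 CPM in sh-Scb and at 504 and 507 CPM in sh-SOX4. Replicates of SCD were close in both groups, and the log2 fold change was -1.72 (SE 0.036) with an edgeR adjusted p of 4.73e-09, the smallest among the 10. SCD has 1 annotated pseudogene copy, SCDP1, and FADS2 has FADS2P1, which could take or give reads. FADS2 (ENSG00000134824, chromosome 11, 61792980 to 61867354, plus strand), the first desaturase of polyunsaturated chain synthesis, stood at 592 and 584 CPM in sh-Scb and at 291 and 308 CPM in sh-SOX4. FADS1 (ENSG00000149485, chromosome 11, 61799625 to 61829318, minus strand), which acts later in the same route, stood at 254 and 260 CPM in sh-Scb and at 127 and 125 CPM in sh-SOX4. Both genes were at about the same fraction of their control level, with log2 fold changes of -0.97 (SE 0.043) and -1.03 (SE 0.044) and edgeR adjusted p-values of 1.36e-07 and 1.22e-07. FADS1 and FADS2 overlap on opposite strands, and 4.79% of the exonic bases of FADS1 and 4.44% of those of FADS2 are shared with a gene on the other strand. Whether counting used strand was not stated by the submitters, so reads from those bases cannot be told apart.

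The ratio of FADS2 to FADS1 counts was 2.33 and 2.25 with sh-Scb, against 2.29 and 2.46 with sh-SOX4, and the groups overlapped. The 95% intervals of the log2 fold changes, -1.13 to -0.93 for FADS1 and -1.07 to -0.88 for FADS2, overlapped as well. The ratio of SCD to FADS2 counts, in contrast, was 2.83 and 2.84 with sh-Scb, against 1.73 and 1.65 with sh-SOX4, a change to 0.596 of the control ratio with no overlap.

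**Figure D2:**
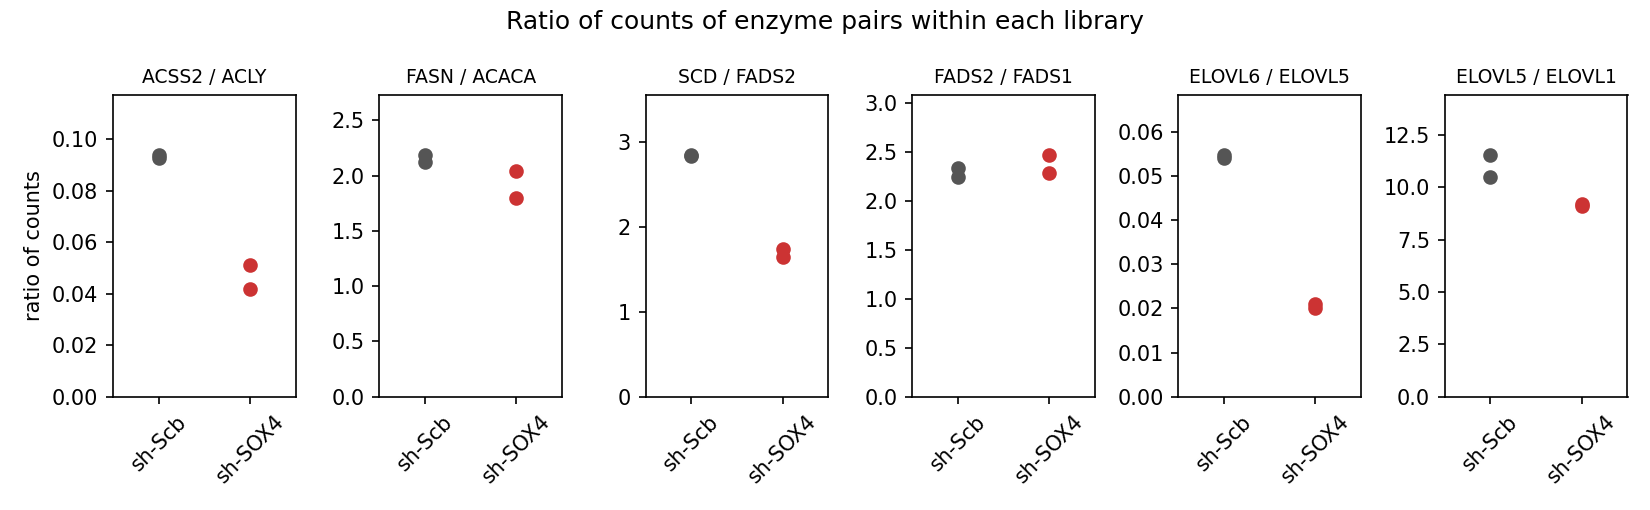
Ratio of counts of 6 enzyme pairs within each library (each axis starts at 0), sh-Scb in grey and sh-SOX4 in red, 2 libraries each. ACSS2 to ACLY, SCD to FADS2 and ELOVL6 to ELOVL5 lie clearly lower in sh-SOX4, while FADS2 to FADS1 overlaps between groups.

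In order of their fall, the 95% intervals of ACSS2 (-2.37 to -1.89) and SCD (-1.80 to -1.64) did not overlap, whereas those of SCD and ELOVL6 (-1.78 to -1.36) did. ELOVL6 and ACLY (-1.21 to -1.04) were apart. The intervals of ACLY, FADS1 (-1.13 to -0.93) and FADS2 (-1.07 to -0.88) overlapped each other, that of FADS2 only narrowly with that of ACLY. An overlap of intervals is not a test of a difference between genes, and none was run. FASN, ACACA and ELOVL5 followed, with the interval of ACACA overlapping both of its neighbours. Only ELOVL1 had an interval that holds 0. The 6 genes with the largest falls were each among the lowest 10% of all tested log2 fold changes.

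**Figure D3:**
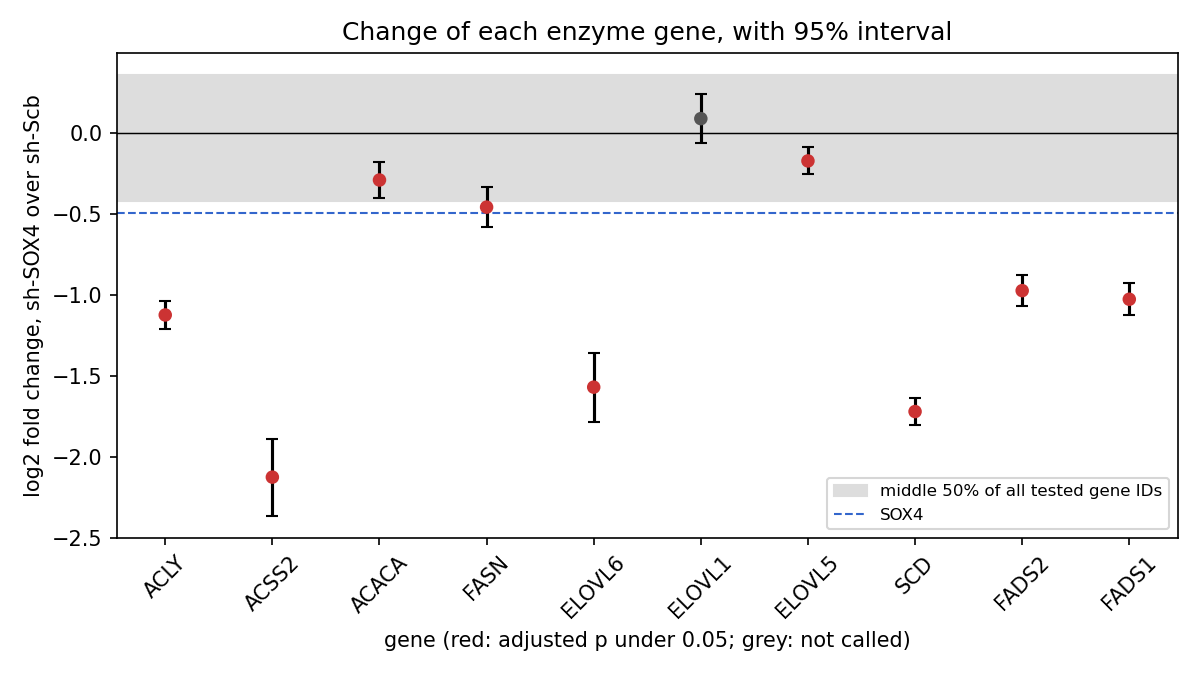
Log2 fold change of each enzyme gene in sh-SOX4 over sh-Scb with its 95% interval from edgeR's model; red points passed the test and grey did not. The grey band holds the middle 50% of all tested gene IDs and the dashed line marks SOX4 at -0.49; ACSS2, SCD, ELOVL6, ACLY, FADS1 and FADS2 lie under both.

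Levels of different genes were compared as CPM per kilobase of annotated exon. On this scale SCD was the highest of the 10 in sh-Scb, at 311 ± 2.02 (SD, n = 2), followed by ACLY at 173 ± 1.70 and ELOVL5 at 168 ± 1.42. In sh-SOX4 ELOVL5 was the highest, at 149 ± 0.0394 (SD, n = 2), ahead of SCD at 94.3 ± 0.380 and ACLY at 79.2 ± 2.01. Per kilobase of the longest transcript these orders turned: ELOVL5 at 208.5 stood above ACLY at 207.5 in sh-Scb, and ACLY at 95.2 above SCD at 94.3 in sh-SOX4, each within the spread of replicates. ELOVL6 was the lowest in both groups, at 4.79 ± 0.00444 and 1.61 ± 0.0508 CPM per kilobase (SD, n = 2). Within the summed level of the 3 desaturases, SCD held 79.9% and 79.8% with sh-Scb, against 70.8% and 70.2% with sh-SOX4. The FADS2 share was 13.7% in each sh-Scb library, against 19.8% and 20.7% with sh-SOX4, and the FADS1 share 6.34% and 6.55% against 9.35% and 9.06%. Within the 3 elongases, ELOVL5 held 85.2% and 86.2% with sh-Scb, against 85.0% and 84.9% with sh-SOX4. The ELOVL6 share was 2.41% and 2.46% against 0.936% and 0.894%. Shares depend on the length used: per kilobase of the longest transcript, SCD held 64.4% and 64.2% of the desaturase sum with sh-Scb, against 52.4% and 51.7% with sh-SOX4. On that length the FADS2 share was 24.0% and 23.9% with sh-Scb, against 31.9% and 33.2% with sh-SOX4. The FADS1 share was 11.6% and 11.9% with sh-Scb, against 15.7% and 15.1% with sh-SOX4. Within the elongases the ELOVL6 share was then 2.14% and 2.19% with sh-Scb, against 0.827% and 0.790% with sh-SOX4.

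Other isoforms of these families were lower in most cases, but none by 2-fold. Of 10 listed, 7 were tested, 5 fell and 1 rose, with a median log2 fold change of -0.25. ELOVL4, which makes very long chains, fell by 0.92 (SE 0.071), from 66.1 to 34.9 CPM, with an edgeR adjusted p of 4.55e-06. FADS3 fell by 0.56 (SE 0.095) and SCD5, the second stearoyl-CoA desaturase, fell by 0.25 (SE 0.060). ACSS1, the mitochondrial acetyl-CoA synthetase, went the other way from ACSS2 and rose by 0.29 (SE 0.053). ACSS3 and FADS6 had 0 counts in all 4 libraries, and ELOVL2 had 9 in 1 library and 0 in the rest.

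Genes that supply carbon and NADPH to the pathway moved both ways, with 3 of 11 tested lower, 5 higher and a median log2 fold change of 0.17. The citrate carrier SLC25A1, which exports the substrate of ACLY from mitochondria, fell by 0.95 (SE 0.056), from 135 to 69.8 CPM, with an edgeR adjusted p of 8.53e-07. Its level is uncertain, since 5 pseudogene copies of it are annotated. PGD, an NADPH-yielding enzyme of the pentose phosphate pathway, fell by 0.55 (SE 0.042) and IDH1, the cytosolic isocitrate dehydrogenase, fell by 0.22 (SE 0.052). MTHFD1, of folate metabolism, rose by 0.69 (SE 0.045) and the monocarboxylate carrier SLC16A1 rose by 0.51 (SE 0.053). ME1, a malic enzyme that yields NADPH, had between 0 and 11 counts and was not tested.

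Of 11 tested partner enzymes of elongation and desaturation, 3 fell, 2 rose and 6 were not called, with a median of -0.08. That share of calls is near the 44.1% called among all tested IDs. CYB5R3, the reductase that feeds electrons to the desaturases through cytochrome b5, rose by 0.68 (SE 0.055), while CYB5A, a cytochrome b5, fell by 0.50 (SE 0.097). The remaining riser was CYB5R1, at 0.25 (SE 0.087). HSD17B12 and TECR, which reduce the elongated chain, fell by 0.17 (SE 0.057) and by 0.18 (SE 0.059), with edgeR adjusted p-values of 0.034 and 0.0321. Annotated exons of other genes cover 21.6% of the exonic bases of HSD17B12.

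Genes that activate and carry fatty acids also split, with 5 of 11 lower, 3 higher and a median of -0.09. The acyl-CoA synthetases ACSL4 and ACSL3 fell by 0.62 (SE 0.057) and by 0.46 (SE 0.045). SLC27A4, a fatty acid transport protein, rose by 0.87 (SE 0.11), SLC27A2 rose by 0.41 (SE 0.066) and FABP5, a fatty acid binding protein with 13 annotated pseudogene copies, rose by 0.62 (SE 0.071). Of 16 glycerolipid synthesis genes, 5 fell and 6 rose, with a median of 0.06. GPAT3 and GPAM, which start glycerolipid synthesis, rose by 0.64 (SE 0.093) and by 0.43 (SE 0.064), and LPCAT1 rose by 0.41 (SE 0.063). The phosphatidate phosphatases LPIN1, LPIN2 and LPIN3 fell by 0.31, 0.23 and 0.95, and AGPAT4 fell by 1.41 (SE 0.40) at a low level, from 1.67 to 0.623 CPM.

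The separate mitochondrial pathway of fatty acid synthesis, which supplies lipoate, held 4 higher and 0 lower genes of 10 by edgeR, with a median of 0.31. DESeq2 and limma-voom called 0 lower as well. At an unadjusted p under 0.05 edgeR had 0 lower, DESeq2 had 1 and limma-voom had 1. MCAT, its malonyl transferase, rose by 1.16 (SE 0.11), from 9.002 to 20.1 CPM, and the acyl carrier protein NDUFAB1 rose by 0.93 (SE 0.058). LIAS, the lipoate synthase, and MECR, its enoyl reductase, rose by 0.57 (SE 0.11) and by 0.58 (SE 0.12). Of 22 tested genes of fatty acid oxidation, 8 rose, 3 fell and 11 were not called, with a median of 0.10, beside 23.2% of all tested IDs called higher and 20.9% lower. CPT1A, which admits fatty acids to mitochondria and is inhibited by malonyl-CoA, rose by 0.64 (SE 0.042), from 215 to 335 CPM, with an edgeR adjusted p of 1.51e-06. ETFA and ECHS1 rose by 0.45 (SE 0.062) and by 0.43 (SE 0.065). The 3 that fell were ACADVL, by 0.48 (SE 0.050), HADH, by 0.20 (SE 0.051), and the transcription factor gene PPARA, by 0.35 (SE 0.068).

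Among the factors known to control these enzymes, 7 of 21 tested fell and 10 rose, with a median of 0.10. SREBF1, whose product is best known for driving fatty acid synthesis genes, stood at 196.2 and 204.7 CPM in sh-Scb and at 116.3 and 123.3 CPM in sh-SOX4, a log2 fold change of -0.74 (SE 0.050). SREBF2, better known for sterol genes, stood at 604 and 613 CPM in sh-Scb and at 201 and 213 CPM in sh-SOX4, a log2 fold change of -1.55 (SE 0.044). The retention factors INSIG1 and INSIG2, which hold SREBP precursors in the membrane, fell by 1.13 (SE 0.042) and by 1.61 (SE 0.083), while SCAP, their escort, rose by 0.32 (SE 0.062). Of the subunits of NF-Y, NFYC rose by 0.95 (SE 0.059), while NFYA and NFYB fell by 0.45 (SE 0.049) and by 0.18 (SE 0.059). SP1, the factor of the GC box, fell by 0.32 (SE 0.045). The other risers of this list were RXRA, USF2, NR1H3 and MBTPS2, by 0.60, 0.52, 0.52 and 0.45. RNF145, NR1H2, MBTPS1 and MLX were also higher, by 0.43, 0.38, 0.25 and 0.23. In the neighbouring sterol route 19 of 20 genes fell and 1 rose, with a median of -1.17: HMGCS1, MVD, MSMO1 and SQLE fell by 1.84, 2.03, 2.14 and 1.36, and PMVK rose by 0.65. Of 11 tested genes listed as regulators of ACACA and FASN activity, 4 fell and 2 rose, with a median of -0.04. The 4 include AACS, which is not such a regulator. AACS, which activates acetoacetate for lipid synthesis, fell by 0.63 (SE 0.074), TRIB2 fell by 0.49 (SE 0.064) and PRKAB2, a subunit of the AMPK kinase that inhibits acetyl-CoA carboxylase, fell by 0.28 (SE 0.056). PRKAG1, another AMPK subunit, rose by 0.42 (SE 0.056) and COP1, a ubiquitin ligase, rose by 0.40 (SE 0.090).

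**Figure D4:**
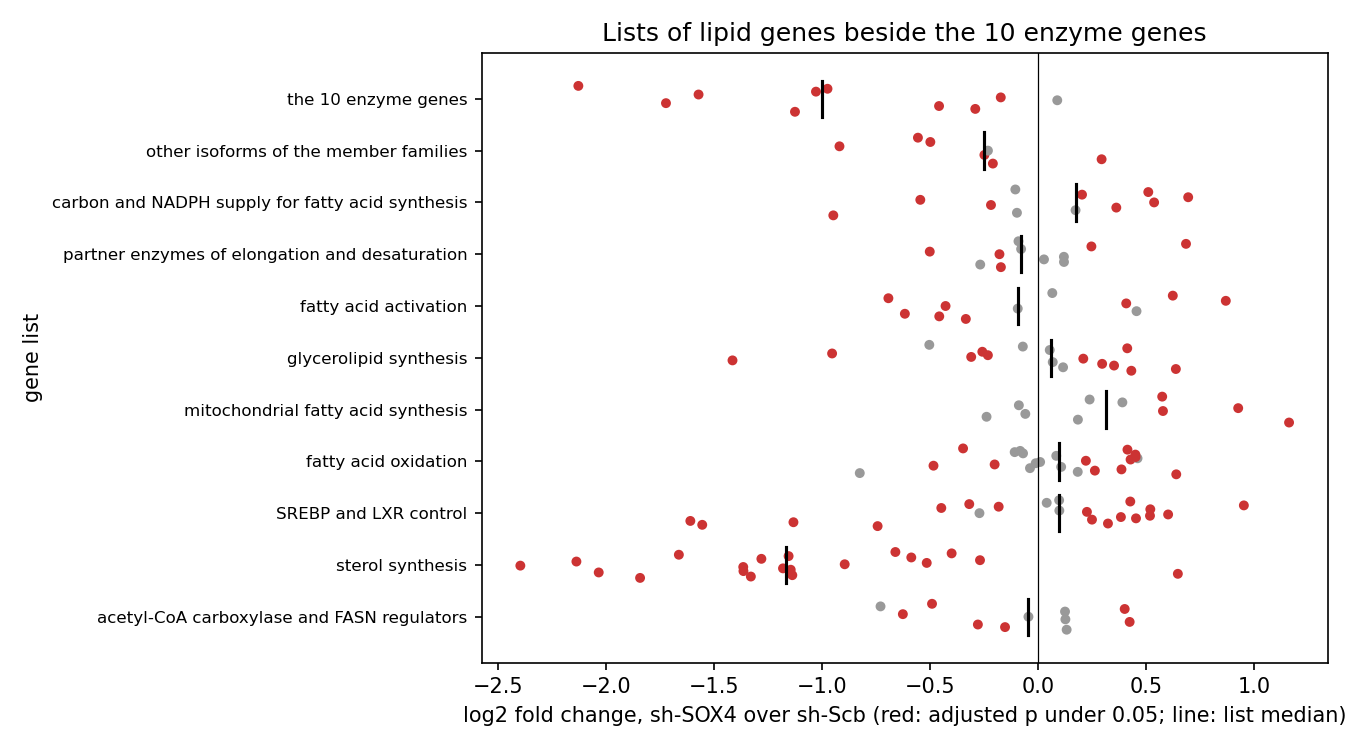
Log2 fold change in sh-SOX4 over sh-Scb of each tested gene in the 10 enzyme genes and in 10 other lists of lipid genes; red points passed edgeR's test at 0.05, grey did not, and the black line is the list median. The enzyme genes (median -1.001) and the sterol genes (median -1.17) lie mostly left of 0, while the medians of the other 9 lists lie between -0.25 and 0.31.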

How the data were processed

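RNA-seq of 4 Jurkat libraries was analysed from the authors' deposited table of whole-number counts per Ensembl gene ID, not normalized. HISAT2 2.2.0, StringTie and hg38 stand in the submitters' processing notes, without their roles. The annotation release, strand use and filters are not given there. Control columns are named NC and were taken as sh-Scb, because the others name SOX4. Symbols matched 56105 of 64252 IDs. Coordinates and exon lengths came from GENCODE release 29 on GRCh38.

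Counts were filtered with filterByExpr (minimum count 10, total 15) and TMM-scaled. The model, with a term for the hairpin, was edgeR 4.0.16's robust quasi-likelihood fit (R 4.3.3, 2 residual degrees of freedom). That fit borrows spread from other genes, so its tests and intervals use more degrees of freedom than these 2. P-values were adjusted over 19897 IDs by the Benjamini-Hochberg method, and SE is the log2 fold change over the root of F. The labels name no separate cultures. The p-values therefore reflect the spread between these libraries alone, and that spread may be technical. Replicates differed by more than sampling (median chi-square 1.71 and 1.60, against 0.455). The members and gene lists were chosen with earlier results of these data known. Text names all 10 members, SREBF1, SREBF2, SCAP and INSIG1. Per list it also names up to 4 called genes with the smallest adjusted p and up to 4 against its majority. NFYA, NFYB, SP1, the further risers among the controlling factors, and genes named for having few or no counts were chosen after their values were seen. Markers were read as levels, and 1 marker list is not reported here. The fit was tested on simulated counts. Intervals on log2 fold changes come from the model. Alternatives used limma 3.58.1 and DESeq2 1.42.0. Figures used matplotlib 3.10.9.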

Additional observations from a re-analysis of the deposited data

How the results depend on the processing

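Under 12 alternatives (scaling by median-ratio size factors or by library totals, dropping the filter or requiring 10 CPM in 2 libraries, a replicate block, DESeq2, limma-voom, a non-robust fit, and each of the 4 libraries left out), 9 of the 10 genes were called lower and 0 higher each time. Leaving out a library leaves 1 in its group, which is then assumed to vary like the other group, so those 4 fits are a weak check. ELOVL1 passed in none of them, and its log2 fold change reversed to -0.0104 with library totals. The number at least 2-fold lower was 5 or 6, as FADS2 lies near that limit; it was 6 with library totals, with the 10 CPM filter and without sh-SOX4 replicate 2. Library totals moved the median of all tested IDs from -0.01 to -0.11, and the share of higher among all calls from 52.5% to 40.8%. With the replicate block 8378 IDs were called against 8775, 9 of the 10 enzyme genes among them; same-numbered libraries did not deviate together (correlation -0.0103), so the numbers are not taken as pairs. With the longest transcript as length, per-kilobase levels rose for 9 of the 10 genes, SCD being unchanged, and ELOVL5 ranked above ACLY in sh-Scb and ACLY above SCD in sh-SOX4. Without either sh-SOX4 library, ELOVL5 had an edgeR adjusted p of 0.044 and 0.0394. With 2 libraries a group, ELOVL6 and ACSS2, with the lowest sh-SOX4 counts, have the widest intervals.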
